A study of Mus musculus with 6 samples.

Results

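The sterol and fatty acid synthesis genes are 31 genes fixed by name that encode the enzymes of cholesterol and fatty acid synthesis and the proteins that sense sterols. All 31 had a row in a table of 15458 rows of read counts, and all 31 passed the filter on low counts that left 13120 genes to be tested. The libraries were made from Kupffer cells, macrophages that live in the liver, which were isolated by FACS from wild-type C57BL/6 mice on day 18 after they received Hepa1-6, a mouse hepatoma cell line. In the KC_Epo group (Hepa1-6_EpoOE, 3 libraries) the tumour cells overexpressed erythropoietin, which stimulates the making of red cells, and in the KC_EV group (Hepa1-6_EV, 3 libraries) they carried an empty vector. Both groups therefore bore a tumour, and no library from mice without one was analysed here. The labels number the mice within each group but do not state whether a library was a single animal or a pool, and give no age, so each p-value reflects only the variation among libraries, which may be technical.

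Cholesterol is built from acetyl-CoA through mevalonate, farnesyl diphosphate, squalene and lanosterol, and fatty acids are built from the same acetyl-CoA through malonyl-CoA. When sterols in the endoplasmic reticulum are low, SCAP carries the SREBP transcription factors to the Golgi for cleavage, and the released part switches on synthesis genes; when sterols are high, INSIG proteins hold SCAP back. Macrophages take up much of their cholesterol with the cells and lipoproteins they ingest, and Kupffer cells clear aged red cells. Sterol and fatty acid synthesis is most active in hepatocytes, so transcripts of these genes can also come from hepatocyte RNA in a sort.

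Of the 31 genes, 9 were higher and 2 lower in KC_Epo at an adjusted p below 0.05 (edgeR quasi-likelihood test, Benjamini-Hochberg over all 13120 genes), and 20 did not pass. That is 35.5% called, against 32.3% of all genes tested, 16.9% higher and 15.4% lower. The median log2 fold change of the 31 was 0.17, against -0.0045 for all genes. Libraries of the groups did not overlap for 15 of the 31 genes, or 48.4%, against 48.3% of all genes. Of these 12 were higher and 3 lower, where 24.1% of all genes were higher without overlap and 24.2% lower. By branch, 4 of 7 fatty acid genes and 2 of 5 sterol sensing and transport genes rose, while 1 of 8 genes of the mevalonate and isoprenoid steps did. Whether the branches differed from each other was not tested.

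**Figure D1:**
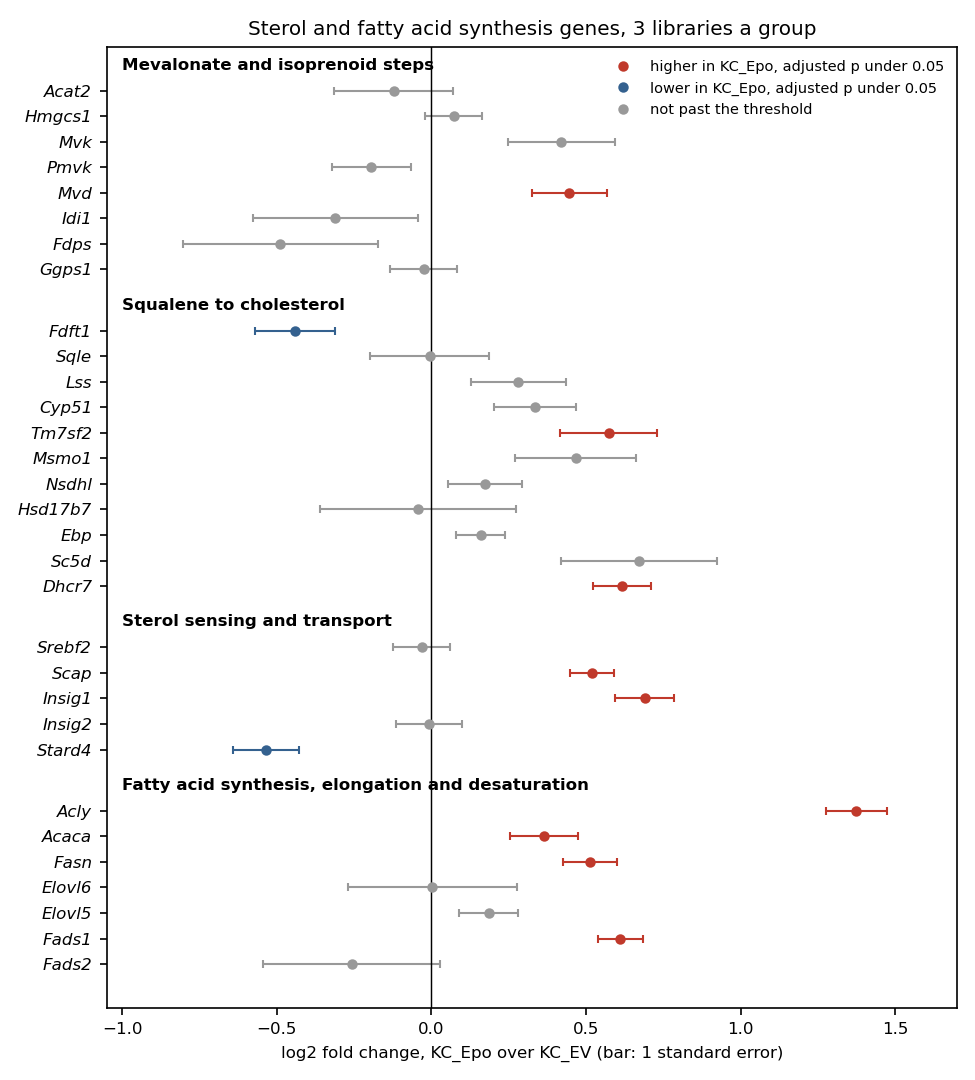
Log2 fold change of each gene, KC_Epo over KC_EV, with 1 standard error on each side, 3 libraries a group, grouped by step of the pathway. Acly lies furthest to the right at 1.37, Fdft1 and Stard4 are the lower genes past the threshold, and the mevalonate genes scatter around 0.

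The promoters of 4 genes are shown to set genes that rose beside one that did not: Acly, Insig1 and Fasn rose in KC_Epo, and Hmgcs1, a textbook target of SREBP2, did not pass the test. Each is the RefSeq sequence (build GRCm38.p6) from 250 bases before to 50 bases after the gene start, written 5′ to 3′ on the gene's strand. Capitals mark the NF-Y box CCAAT, the GC box GGGCGG and the sterol regulatory element core TCACNCCAC, on either strand.
Acly (chr11:100527951-100528250, minus strand): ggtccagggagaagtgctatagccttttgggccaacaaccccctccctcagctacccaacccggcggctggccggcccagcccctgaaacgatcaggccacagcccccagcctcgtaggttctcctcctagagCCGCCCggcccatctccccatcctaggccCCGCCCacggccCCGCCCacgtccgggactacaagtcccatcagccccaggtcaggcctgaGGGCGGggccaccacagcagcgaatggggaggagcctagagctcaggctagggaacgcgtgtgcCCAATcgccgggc
Insig1 (chr5:28071162-28071461, plus strand): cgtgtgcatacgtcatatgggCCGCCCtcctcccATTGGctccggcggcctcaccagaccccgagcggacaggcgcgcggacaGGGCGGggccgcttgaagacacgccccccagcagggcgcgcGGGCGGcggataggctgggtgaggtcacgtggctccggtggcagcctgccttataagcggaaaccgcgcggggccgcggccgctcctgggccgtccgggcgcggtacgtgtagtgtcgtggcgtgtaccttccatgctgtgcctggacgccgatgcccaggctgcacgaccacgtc
Fasn (chr11:120824498-120824797, minus strand): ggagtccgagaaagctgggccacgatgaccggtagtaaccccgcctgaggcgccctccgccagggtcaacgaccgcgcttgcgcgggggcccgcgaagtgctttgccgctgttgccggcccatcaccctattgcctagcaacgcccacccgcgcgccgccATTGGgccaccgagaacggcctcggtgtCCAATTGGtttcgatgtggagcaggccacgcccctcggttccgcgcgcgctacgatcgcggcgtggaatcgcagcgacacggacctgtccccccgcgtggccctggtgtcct
Hmgcs1 (chr13:119690101-119690400, plus strand): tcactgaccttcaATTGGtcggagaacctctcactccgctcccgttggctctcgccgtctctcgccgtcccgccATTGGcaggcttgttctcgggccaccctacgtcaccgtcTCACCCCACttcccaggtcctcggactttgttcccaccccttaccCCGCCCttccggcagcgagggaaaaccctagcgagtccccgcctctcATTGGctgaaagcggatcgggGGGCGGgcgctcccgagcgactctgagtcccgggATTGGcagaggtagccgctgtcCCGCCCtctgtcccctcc

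The Hmgcs1 window held the sterol regulatory element core 137 bases before the start, with NF-Y boxes on both sides and 3 GC boxes, all of them nearer to or past the start. The core's letters were absent from the Acly, Insig1 and Fasn windows. In Fasn an NF-Y box and its reverse overlapped within the run CCAATTGG. A promoter sequence was at hand for 26 of the 31 genes. Over all promoters listed for a gene, 1 of the 26 (3.8%) held the sterol core, against 1.4% of 10245 tested genes with a promoter and 1.24% of all 32851 promoters in the table. For the NF-Y box the count was 21 of 26 (80.8%), against 43.0% of the tested genes and 37.41% of all promoters. The GC box stood in 20 of 26 (76.9%), against 66.1% of tested genes and 35.66% of all promoters. These are matches of letters in a short window and show no binding.

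The fatty acid genes held the largest change. Acly, ATP citrate lyase, which splits exported citrate into the cytosolic acetyl-CoA that both pathways start from, had 417, 539 and 492 CPM (read counts relative to library size, with TMM scaling between libraries) in KC_Epo 1 to 3, against 202, 173 and 184 CPM in KC_EV 1 to 3. Every KC_Epo library was above the highest KC_EV library, and the fitted fold was 2.59, or 1.37 ± 0.10 on the log2 scale (estimate ± SE, as for all fold changes here, edgeR adjusted p = 2.04e-06). Per kilobase of exon Acly was also the most abundant of the 31 genes, at 91.5 CPM per kb in KC_Epo and 35.3 CPM per kb in KC_EV. The next were Insig1 at 31.8 and 19.7 CPM per kb, Fads1 at 27.8 and 18.2 CPM per kb and Elovl5 at 26.6 and 23.4 CPM per kb in KC_Epo and KC_EV. In bulk libraries a change in the number of cells of a type and a change in RNA per cell cannot be told apart.

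The enzymes that turn acetyl-CoA into palmitate rose less. Fasn, fatty acid synthase, had 44.7, 47.4 and 50.5 CPM in KC_Epo, against 33.1, 30.8 and 35.9 CPM in KC_EV. The groups did not overlap, and the log2 fold change was 0.51 ± 0.09 (edgeR adjusted p = 0.000965). Acaca, acetyl-CoA carboxylase 1, which makes malonyl-CoA, had 22.9, 20.8 and 23.3 CPM in KC_Epo, against 18.8, 15.9 and 17.3 CPM in KC_EV. Its log2 fold change of 0.36 ± 0.11 passed (edgeR adjusted p = 0.0235), but not without KC_Epo 3, KC_EV 2 or KC_EV 3, where edgeR gave 0.31 to 0.37 and an adjusted p up to 0.101. It also missed the threshold with upper-quartile factors (0.30, adjusted p = 0.0523) and with library sizes only (0.21, adjusted p = 0.156).

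Desaturases and elongases, which lengthen fatty acids and add double bonds, did not move together. Fads1, the delta-5 desaturase of polyunsaturated fatty acids, had 125, 144 and 132 CPM in KC_Epo, against 85.9, 87.8 and 88.8 CPM in KC_EV. The KC_EV libraries were close to each other, and the log2 fold change was 0.61 ± 0.07 (edgeR adjusted p = 7.36e-05). Fads2, the delta-6 desaturase that acts before Fads1, had 8.03, 3.35 and 5.83 CPM in KC_Epo, against 7.41, 7.58 and 5.61 CPM in KC_EV. The groups overlapped, with KC_Epo 1 highest and KC_Epo 2 lowest of all 6 libraries, and Fads2 did not pass (-0.26 ± 0.29, edgeR adjusted p = 0.525). With KC_Epo 2 as the lone KC_Epo library, a fit that cannot measure variation within KC_Epo, its value was -1.02. Elovl5, an elongase of polyunsaturated fatty acids, had 106, 82.6 and 91.6 CPM in KC_Epo, against 89.8, 79.3 and 77.7 CPM in KC_EV, and did not pass (0.18 ± 0.10, edgeR adjusted p = 0.164). Elovl6, which elongates palmitate, had 3.73, 2.35 and 3.46 CPM in KC_Epo, against 3.56, 2.85 and 3.10 CPM in KC_EV, with a log2 fold change of 0.003 ± 0.27 (edgeR adjusted p = 0.994).

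Ratios of counts inside a library do not depend on the scaling between libraries. The ratio of Fads2 to Fads1 was 0.0643, 0.0232 and 0.0443 in KC_Epo 1 to 3, against 0.0862, 0.0863 and 0.0631 in KC_EV 1 to 3. The lowest KC_EV ratio lay below that of KC_Epo 1, and the exact two-sided permutation test gave p = 0.2 (adjusted p = 0.2 over 3 ratios). Elovl6 to Elovl5 was 0.0351, 0.0284 and 0.0378 in KC_Epo, against 0.0397, 0.0359 and 0.0399 in KC_EV (exact permutation p = 0.2, adjusted p = 0.2). Insig1 to Insig2 was 3.13, 4.32 and 4.70 in KC_Epo, against 2.58, 2.10 and 2.77 in KC_EV, without overlap. Its exact permutation p of 0.1 (adjusted p = 0.2) is the smallest that 3 against 3 libraries allow.

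**Figure D2:**
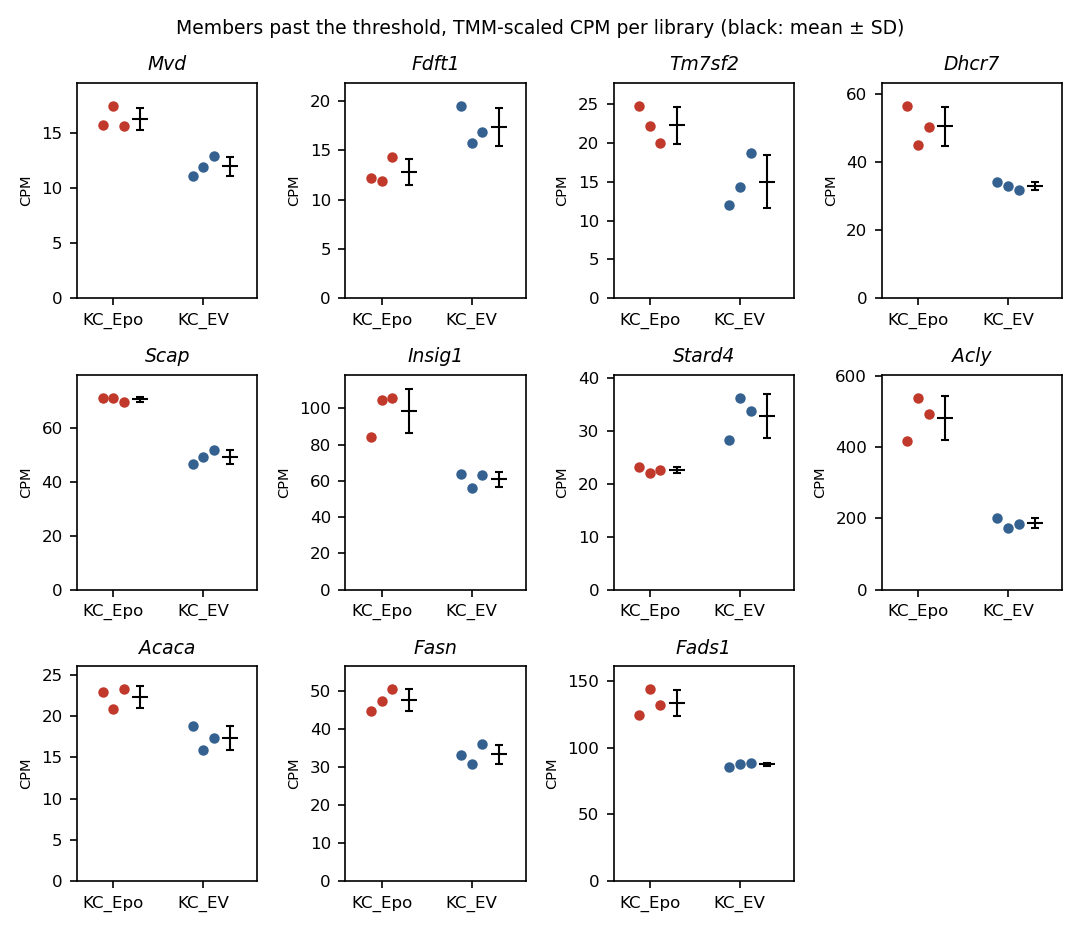
TMM-scaled CPM per library for the 11 genes past the threshold, KC_Epo left and KC_EV right in each panel, dots for libraries 1 to 3, and mean with SD in black. All panels start at 0, and in none of them do the groups overlap.

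Among the sterol sensors Insig1 and Scap rose, Stard4 fell, and Insig2 and Srebf2 did not pass the test. Insig1, which holds SCAP in the endoplasmic reticulum and is itself an SREBP target, had 84.5, 105 and 106 CPM in KC_Epo, against 63.6, 56.2 and 63.1 CPM in KC_EV (log2 fold change 0.69 ± 0.10, edgeR adjusted p = 0.00023). KC_Epo 1 was the lowest of its group and still above each KC_EV library. Scap, the escort of SREBP, had 71.2, 70.9 and 69.6 CPM in KC_Epo, against 46.7, 49.3 and 51.7 CPM in KC_EV. That is a log2 fold change of 0.52 ± 0.07 (edgeR adjusted p = 0.000238), with the KC_Epo libraries within 2 CPM of each other. In the GENCODE M21 annotation 13.2% of the exonic bases of Scap are also covered by a gene on the opposite strand.

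Srebf2, the SREBP2 transcription factor, had 74.2, 94.2 and 84.7 CPM in KC_Epo, against 80.1, 91.8 and 86.8 CPM in KC_EV. The groups overlapped fully, at -0.03 ± 0.09 (edgeR adjusted p = 0.821). Insig2, a relative of Insig1 that also binds SCAP, had 27.0, 24.2 and 22.6 CPM in KC_Epo, against 24.7, 26.8 and 22.8 CPM in KC_EV (-0.01 ± 0.11, edgeR adjusted p = 0.96). Stard4, which carries cholesterol between membranes, had 23.2, 22.0 and 22.6 CPM in KC_Epo, against 28.2, 36.3 and 33.8 CPM in KC_EV. It fell by 0.54 on the log2 scale (SE 0.11, edgeR adjusted p = 0.00252), with every KC_Epo library below every KC_EV library.

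In the mevalonate and isoprenoid steps 1 of 8 genes passed, 12.5% called against 32.3% of all genes tested. The log2 fold changes ran in both directions, from -0.49 to 0.45. Hmgcs1, the HMG-CoA synthase, had 41.6, 37.2 and 37.4 CPM in KC_Epo, against 39.5, 37.9 and 33.1 CPM in KC_EV, a log2 fold change of 0.07 ± 0.09 (edgeR adjusted p = 0.585). Mvd, which decarboxylates mevalonate diphosphate, was the member of these steps past the threshold, with 15.7, 17.4 and 15.6 CPM in KC_Epo, against 11.1, 11.9 and 12.9 CPM in KC_EV. It rose by 0.45 ± 0.12 (edgeR adjusted p = 0.0148), and at library sizes only it stood at 0.29 (adjusted p = 0.0806). Mvk, the mevalonate kinase, had 9.19, 11.7 and 11.1 CPM in KC_Epo, against 7.44, 9.59 and 6.84 CPM in KC_EV. It missed the threshold (0.42 ± 0.17, edgeR adjusted p = 0.082) and passed without KC_Epo 1 (0.52, adjusted p = 0.0402) or without KC_EV 2 (0.58, adjusted p = 0.0466).

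Acat2, Pmvk, Idi1, Fdps and Ggps1, which serve the first condensation, the second phosphorylation, the isomerisation and the prenyl chain steps, had log2 fold changes of -0.49 to -0.03, and none passed. Summed over the 8 genes the level was 119 ± 4.17 CPM in KC_Epo and 114 ± 3.65 CPM in KC_EV (SD, n = 3 each). Fdps, the farnesyl diphosphate synthase, had 44, 61 and 40 counts in KC_Epo and 69, 78 and 89 counts in KC_EV. Its groups did not overlap, yet it did not pass (-0.49 ± 0.32, edgeR adjusted p = 0.259). Per kilobase its level was 0.412 CPM per kb in KC_Epo and 0.578 CPM per kb in KC_EV, near those of Hsd17b7 (0.473 and 0.484 CPM per kb) and Elovl6 (0.494 and 0.493 CPM per kb), the other members of lowest level. Near-identical transcripts of other genes exist in the annotation for Fdps (3 genes), Idi1 (3 genes), Acat2 (2 genes) and 5 further members, at 95% identity over 300 bases. Reads shared with such copies may not have been counted, so the levels of these genes are uncertain. Matches on both strands were taken, and some are genes that overlap the member on the opposite strand. These include Gm48342, the only match of Hmgcs1, Gm48574 for Idi1 and Ctsb for Fdft1. Whether reads are lost to such an overlap depends on the strand setting, which was not given.

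In the steps from squalene to cholesterol 2 of 11 genes rose and 1 fell, 27.3% called against 32.3% of all genes tested. The median log2 fold change of the 11 was 0.28. Dhcr7, which reduces 7-dehydrocholesterol in the last step of one route, had 56.4, 44.9 and 50.1 CPM in KC_Epo, against 34.1, 32.9 and 31.8 CPM in KC_EV (0.62 ± 0.09, edgeR adjusted p = 0.000424). The lowest KC_Epo library, KC_Epo 2, was above all KC_EV libraries. Tm7sf2, a sterol C14 reductase, had 24.8, 22.2 and 20.01 CPM in KC_Epo, against 12.01, 14.3 and 18.7 CPM in KC_EV (0.57 ± 0.16, edgeR adjusted p = 0.0161). Its call was lost without KC_EV 1 (0.44, adjusted p = 0.0588), without KC_EV 2 (0.54, adjusted p = 0.068) and with library sizes only (0.42, adjusted p = 0.0625). Of its exonic bases 12.1% are shared with Vps51 on the same strand.

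Fdft1, squalene synthase, which commits farnesyl diphosphate to sterols, was lower. It had 12.2, 11.9 and 14.4 CPM in KC_Epo, against 19.5, 15.8 and 16.9 CPM in KC_EV, a value of -0.44 ± 0.13 (edgeR adjusted p = 0.0213). The call was lost without KC_Epo 2 (-0.38, adjusted p = 0.0625), KC_EV 1 (-0.35, adjusted p = 0.0833) or KC_EV 3 (-0.46, adjusted p = 0.054). On the opposite strand Ctsb covers 18.3% of its exonic bases, and the predicted gene Gm6781 has a near-identical transcript, so its level is uncertain. Sqle, squalene epoxidase, a slow step of the pathway, had 6.78, 5.63 and 6.79 CPM in KC_Epo, against 5.99, 7.61 and 5.66 CPM in KC_EV (-0.01 ± 0.19, edgeR adjusted p = 0.987). Lss, Nsdhl, Hsd17b7 and Ebp, of lanosterol closure, C4 demethylation and the sterol isomerase step, had values of -0.04 to 0.28, and none passed. Lss passed without KC_Epo 1 (0.42, adjusted p = 0.0426).

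For Sc5d, Msmo1 and Cyp51 the range of the KC_Epo libraries was wider than the difference of the group means. Sc5d, the C5 desaturase, had 45.5, 22.5 and 32.6 CPM in KC_Epo, against 20.4, 20.4 and 22.4 CPM in KC_EV (0.67 ± 0.25, edgeR adjusted p = 0.0921). Msmo1, the C4 methyl oxidase, had 45.2, 26.3 and 36.7 CPM in KC_Epo, against 28.1, 22.8 and 27.4 CPM in KC_EV (0.47 ± 0.19, edgeR adjusted p = 0.11). Cyp51, the lanosterol demethylase, had 30.9, 23.8 and 29.9 CPM in KC_Epo, against 26.2, 21.0 and 19.9 CPM in KC_EV (0.33 ± 0.13, edgeR adjusted p = 0.0721). In each gene KC_Epo 1 was highest and KC_Epo 2 close to the KC_EV libraries. Without KC_Epo 2 all of them passed by edgeR, Sc5d at 0.90 (adjusted p = 0.000167), Msmo1 at 0.66 (adjusted p = 0.00107) and Cyp51 at 0.45 (adjusted p = 0.0169), and Elovl5 passed as well (0.28, adjusted p = 0.04). With all libraries Sc5d passed by DESeq2 (adjusted p = 0.003) and by the non-robust edgeR fit (adjusted p = 0.0386), and Msmo1 by DESeq2 (adjusted p = 0.024). With KC_Epo 2 alone against KC_EV they stood at 0.11, 0.02 and 0.10.

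Markers of other liver cells also differed between the groups, in some lists more than in others. Of all genes tested 16.9% were higher and 15.4% lower. Of 25 hepatocyte markers 13 rose and 0 fell, none was at 0, and their sum was 25893, 7604 and 15501 CPM in KC_Epo 1 to 3, against 3575, 4439 and 4094 CPM in KC_EV. Of 15 sinusoidal endothelial markers 12 fell and 1 rose, none was at 0, and their sum was 2555 to 3568 CPM in KC_Epo, against 5635 to 6601 CPM in KC_EV. Among 14 Kupffer cell markers 10 rose and 1 fell, with sums of 52692 to 60578.5 CPM in KC_Epo and 36539 to 39112 CPM in KC_EV. All 7 erythroid markers tested rose, and their sum was 1108.5, 606 and 810 CPM in KC_Epo, against 33.3, 43.1 and 35.1 CPM in KC_EV. Of the proliferation markers 8 of 10 fell, with sums of 288 to 314 CPM in KC_Epo and 428 to 452 CPM in KC_EV. In the lists of dendritic cells 4 of 7 fell and of cholangiocytes 3 of 6. Of stellate cell and fibroblast markers 3 of 10 fell, 30% called against 32.3% of all genes tested. Epo itself had 29, 44 and 21 counts in KC_Epo 1 to 3 and 0 in each KC_EV library. Total counts were 23201076 to 33280754 per library.

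The order of the KC_Epo libraries in the hepatocyte sum (1, then 3, then 2) was shared by 10 of the 31 genes, or 32.3%, against 26.7% of all genes tested. They were Hmgcs1, Cyp51, Msmo1, Nsdhl, Sc5d, Dhcr7, Stard4, Elovl6, Elovl5 and Fads2, 5 of them from the steps between squalene and cholesterol. The reverse order was held by 6 genes, or 19.4%, against 26% of all genes tested: Mvk, Pmvk, Fdps, Srebf2, Acly and Fads1. Of the Kupffer cell markers 12 of 14 had this reverse order. The order of the hepatocyte sum was not particular to hepatocyte markers. It was held by 14 of 15 sinusoidal endothelial, 6 of 7 erythroid and 8 of 10 stellate cell and fibroblast markers. Fewer held it among dendritic cell (3 of 7), cholangiocyte (2 of 6) and proliferation markers (3 of 10). The order therefore does not tie a gene to hepatocyte RNA. KC_Epo 2 was the lowest of its group in the hepatocyte sum but still above each KC_EV library. It had the most Epo counts (44, against 29 and 21 in KC_Epo 1 and 3), so it was not shown to be the purest library. The log2 fold changes of Acly, Fads1, Scap, Insig1 and Fasn with KC_Epo 2 alone against KC_EV were 1.55, 0.73, 0.54, 0.79 and 0.52. In that comparison Dhcr7 was at 0.46, Acaca at 0.27, Tm7sf2 at 0.58 and Mvd at 0.56. Stard4 was at -0.56 and Fdft1 at -0.54. The comparison leaves 1 library in KC_Epo, so variation within KC_Epo is not measured and no p-values are given. The part of RNA from these other cells, or from the Hepa1-6 tumour cells, in the differences was not tested.

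**Figure D3:**
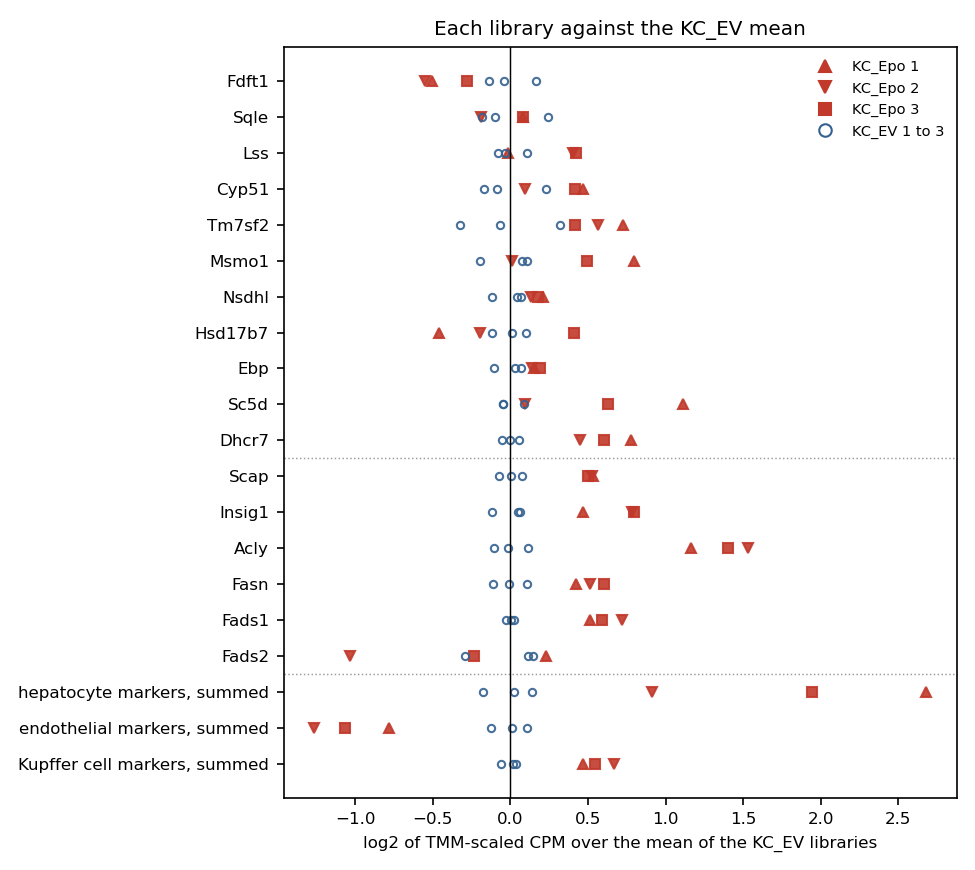
Log2 of each library's level over the KC_EV mean for the squalene to cholesterol genes, 6 other members and summed marker lists, with filled symbols for KC_Epo 1 to 3 and open circles for KC_EV. KC_Epo 1 lies to the right of KC_Epo 2 for Sc5d, Msmo1, Dhcr7, Fads2 and the hepatocyte and endothelial sums. It lies to the left of KC_Epo 2 for Acly, Insig1, Fads1 and the Kupffer cell sum.

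Summed over each branch, the fatty acid genes had 728, 840 and 798 CPM in KC_Epo, against 440, 398 and 413 CPM in KC_EV. Without Acly the sum of the other 6 fatty acid genes was 306 ± 4.99 CPM in KC_Epo and 230 ± 7.43 CPM in KC_EV (SD, n = 3 each). The squalene to cholesterol genes summed to 291, 229 and 266 CPM in KC_Epo, against 214, 196 and 206 CPM in KC_EV. The sensing and transport genes summed to 301 ± 18.5 CPM in KC_Epo and 254 ± 9.31 CPM in KC_EV. Sums follow the most abundant members and were not tested.

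Other genes of the pathway were read from 5 lists that hold none of the 31 genes. Together 26 of 86 tested genes rose and 9 fell, 40.7% called against 32.3% of all genes. Without scaling factors (library sizes only) the median over all tested genes was -0.16, and the balance turned to 14 higher and 16 lower. Among genes of oxysterol and LXR signalling and sterol disposal 9 of 20 rose and 3 fell, 60% called. Nceh1, a cholesteryl ester hydrolase, had 102, 116 and 115 CPM in KC_Epo, against 61.0, 55.2 and 51.5 CPM in KC_EV (log2 fold change 0.99 ± 0.08, edgeR adjusted p = 5.72e-06). Npc1, which moves cholesterol out of lysosomes, rose by 0.88 ± 0.09, and Lpcat3, a phospholipid-remodelling LXR target, by 0.71 ± 0.07. Mylip, an LXR-induced ubiquitin ligase, had 103, 95.6 and 96.9 CPM in KC_Epo, against 141, 151 and 143 CPM in KC_EV, a value of -0.56 ± 0.07 (edgeR adjusted p = 9.37e-05).

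Of 12 further SREBP control genes 5 rose and 1 fell. With library sizes only 2 were higher and 2 lower, and the lower call was lost with any single library left out other than KC_EV 1. Erlin2, which takes part in sterol-regulated degradation in the endoplasmic reticulum, rose by 0.59 ± 0.07, and Sec24d, a coat protein of vesicles that leave it, rose by 0.60 ± 0.08. Mbtps2, the site-2 protease that releases SREBP, rose by 0.43 ± 0.11 but lost its call without KC_EV 3 (0.36, edgeR adjusted p = 0.0547) and with library sizes only (0.27, adjusted p = 0.0721). In the list of other sterol synthesis and uptake genes 3 of 12 rose and 1 fell, 33.3% called and so near the share of all genes. Por, the reductase that feeds electrons to Cyp51 and Sqle, had 104, 114 and 110 CPM in KC_Epo, against 64.1, 68.8 and 72.1 CPM in KC_EV (0.68 ± 0.07, edgeR adjusted p = 3.79e-05). The gene that fell was Lbr, the other sterol C14 reductase, at -0.33 ± 0.07, where Tm7sf2 was at 0.57. With KC_Epo 2 alone Lbr was at -0.31.

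In the list of further fatty acid enzymes, 5 of 28 rose and 3 fell, or 28.6% called, against 32.3% of all genes tested. The counts were 2 higher and 6 lower with library sizes only, 8 and 6 without KC_Epo 1, and 2 and 3 without KC_Epo 3. Scd1, the stearoyl-CoA desaturase, had 284, 178 and 219 CPM in KC_Epo, against 96.0, 89.0 and 86.7 CPM in KC_EV (1.32 ± 0.17, edgeR adjusted p = 0.00151), in the order of the hepatocyte sum and at 0.98 with KC_Epo 2 alone. Hacd4, a dehydratase of the elongation cycle, had 82.8, 98.9 and 88.0 CPM in KC_Epo, against 46.6, 44.5 and 45.4 CPM in KC_EV (0.98 ± 0.08, edgeR adjusted p = 4.5e-06). Acsl3 and Acsl5, which activate fatty acids to acyl-CoA, were lower at -0.58 ± 0.14 and -0.37 ± 0.08. With KC_Epo 2 alone they stood at -0.44 and -0.31. Of 14 genes that use isoprenoids 4 rose and 1 fell, 35.7% called and so near the share of all genes. Those that rose were Nus1 at 0.32 ± 0.07, Rabggta at 0.31 ± 0.07, Rce1 at 0.31 ± 0.10 and Dhdds at 0.28 ± 0.08, of dolichol synthesis, protein prenylation and CAAX cleavage. All of them missed the threshold with library sizes only (0.12 to 0.16, lowest edgeR adjusted p = 0.0995), where 2 genes of the list were lower. With KC_Epo 2 alone Nus1 and Rabggta stood at 0.24 and 0.26, and Rce1 and Dhdds at 0.43 and 0.40. Rce1 lost its call by edgeR without any of KC_Epo 2, KC_Epo 3 or the 3 KC_EV libraries (0.26 to 0.35) and Dhdds without KC_Epo 2, KC_Epo 3, KC_EV 2 or KC_EV 3 (0.22 to 0.30).

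**Figure D4:**
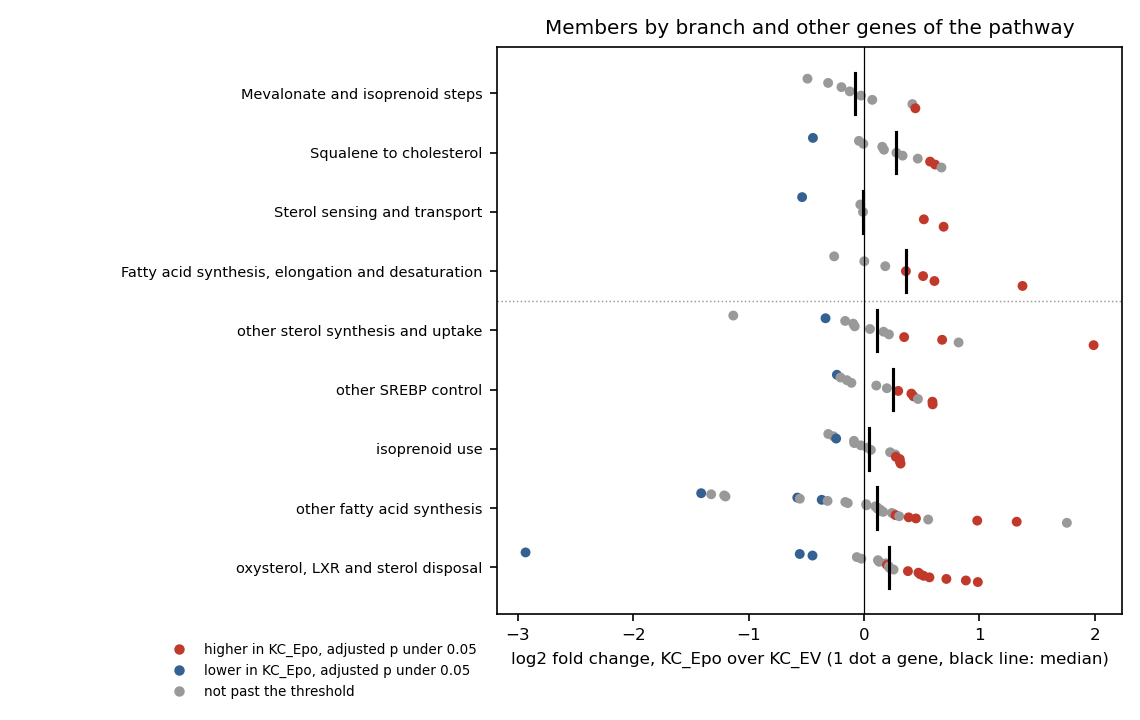
Log2 fold change, KC_Epo over KC_EV, of each tested gene in the 4 branches (above the dotted line) and the 5 lists of other pathway genes, 1 dot a gene, with the median as a black line. Red dots (higher) outnumber blue dots (lower) in the 5 lists with TMM scaling, 26 against 9 (14 against 16 with library sizes only), and the list medians lie between 0.04 and 0.25.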

How the data were processed

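Stranded polyA libraries were prepared from the sorted cells (TruSeq, per the labels' protocols). The authors deposited raw read counts per gene symbol in 6 columns, matched to the samples by library name. The submitters' processing notes list, without roles, HTSeq 0.11.2, STAR 2.7.3a, Bowtie2 2.5.1, FastQC 0.11.8 and build GRCm39. The strand setting and other counting options were not given in the sources used here. Where a symbol stood on 2 rows (12 symbols), it was assigned to the one with the higher total.

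Counts were fitted with edgeR 4.0.16 in R 4.3.3 (TMM, default filterByExpr, robust quasi-likelihood F test, no block), and SEs came from the F statistic. Alternatives were other size factors, other filters, a non-robust fit, DESeq2 1.42.0, limma-voom (limma 3.58.1), a replicate block and leaving out each library. Keeping KC_Epo 2 as the lone KC_Epo library was chosen after seeing the data. Total counts were 23201076 to 33280754, and no library duplicated another (chi-square per gene at least 6.15 within groups).

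The 31 members and the lists were chosen with earlier results of these data known. Named genes outside the members were the 4 with the smallest adjusted p per list, and some of these are not reported here. Of the members not past the threshold, per-library values of Mvk, Cyp51, Sc5d, Msmo1, Elovl5 and Fdps are given because of their values, seen beforehand. Exon lengths and overlaps came from GENCODE M21 (GRCm38), another build than that of the counts.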

Additional observations from a re-analysis of the deposited data

How the results depend on the processing

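The count of members that rose was 9 and ranged from 6 with library sizes only to 11 with DESeq2, and from 8 to 13 with a library left out; those that fell numbered 2, 3 with library sizes only, and 1 to 2 with a library left out (1 without KC_Epo 2, KC_EV 1 or KC_EV 3). All 11 calls were shared by RLE factors, TMM without hepatocyte and erythroid markers, no filter, 1 CPM in 3 libraries, DESeq2, limma-voom and the non-robust fit. With library sizes only the median of all genes moved to -0.16 and the higher share of calls to 24.8%, against 52.4% with TMM and 40.6% with upper-quartile factors. In that setting 1193 genes were higher and 3616 lower of all genes (2219 and 2015 with TMM), 14 and 16 of the 5 lists (26 and 9 with TMM), and the log2 ratios of the branch sums were -0.10 for the mevalonate steps (0.05 with TMM), 0.20 for squalene to cholesterol (0.35), 0.083 for sensing and transport (0.24) and 0.76 for fatty acids (0.92). Leaving out single libraries gave 1477 to 2410 genes higher and 1251 to 2147 lower, the lowest both without KC_Epo 3. The cause was not tested. With KC_Epo 2 alone only fold changes are given, since 1 library measures no variation within its group. Libraries of the same number did not deviate together (correlations of -0.148 to -0.0407). With 3 libraries a group this cannot settle whether the numbers pair them. With the replicate block 9 members were higher and 2 lower; Tm7sf2 lost its call (0.59, adjusted p = 0.0556) and Msmo1 gained one (0.44, adjusted p = 0.0248). The lower call among further SREBP control genes was lost under the block. Under it 1800 of all genes were higher and 1558 lower. All 3 ratios had an exact permutation p = 0.25 under the block, the smallest possible. Their log2 differences were 0.70 for Insig1 to Insig2, -0.20 for Elovl6 to Elovl5 and -0.94 for Fads2 to Fads1. No call reversed under any alternative run. Of the members, Fdps, Hsd17b7, Idi1, Elovl6 and Fads2 had the largest SEs, 0.27 to 0.32, and Fdps did not pass at -0.49; its 40 to 89 counts per library limit its precision.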
